A study of Mus musculus with 2 samples.

Results

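The Hoxc cluster is a run of 9 homeobox genes on mouse chromosome 15, and it was examined here for binding of Suz12. Its members were taken as all Suz12 peaks that overlap the stretch from Hoxc13 to Hoxc4 (GRCm38 chr15:102921131-103036856, 115726 bp) or the 10 kb on either side, together with the body of each Hoxc gene and each gap between neighbouring genes. This gave 13 of the 3373 peaks of the whole list, 9 gene bodies and 8 gaps. The peaks come from 1 chromatin immunoprecipitation library, made with an antibody to Suz12 from wild-type E14 mouse embryonic stem cells (strain label E14-WT) differentiated for 72 h by withdrawal of leukemia inhibitory factor and addition of all-trans-retinoic acid (1 µM) to the serum medium. Leukemia inhibitory factor is the cytokine that keeps such cells undifferentiated. The series also holds a Suz12 library from Suz12-KO cells (genotype Suz12-/-) at 0 h in the same kind of serum culture, which was not analysed here. With 1 library there is no replicate error, no comparison between conditions and no p-value, and every value below describes this library. Transcripts were not measured, so the cell label could not be checked against marker genes, and a weak peak cannot be told apart from a peak held by a share of the cells.

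Suz12 is a core subunit of Polycomb Repressive Complex 2, which methylates lysine 27 of histone H3 and helps to keep developmental genes silent. Hox genes encode transcription factors that give positions along the body axis their identity. They lie in clusters in which the order on the chromosome follows the order of expression along the axis, low-numbered genes being used toward the head and high-numbered genes toward the tail. Retinoic acid is known to activate Hox genes from the low-numbered side first. All Hoxc genes are read in the same direction, from the Hoxc13 side toward the Hoxc4 side, so the lower coordinate of each gene is taken here as its start. This is the outermost start of all transcript models of the gene, and transcripts can also start farther in, as one listed for Hoxc4 does. Such inner starts could not be checked for the other Hoxc genes.

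Suz12 peaks lay over the high-numbered side of the cluster and stopped at the start of Hoxc6. From Hoxc13 to the far end of Hoxc9, peaks covered 84.3% of 63314 bp. Over the rest of the cluster, from the gap after Hoxc9 through Hoxc4, they covered 9.91% of 52412 bp, and the last 38421 bp held no peak. The stretch from Hoxc13 to Hoxc9 thus contained 91.1% of all covered bases of the cluster.

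Short sequences from both sides of this divide are given here. The first are the microRNAs encoded between or within Hoxc genes, small RNAs that pair with messages through a seed (bases 2 to 8, in capitals, 5′ to 3′). Mir196a-2 (GRCm38 chr15:102973350-102973434, plus strand) lies in the gap between Hoxc10 and Hoxc9, inside the Suz12-covered side, and Mir615 (GRCm38 chr15:103014910-103015001, plus strand) lies within Hoxc5, on the peak-free side. The sequences are RefSeq's, of build GRCm38.p6, in which both genes were found. The last line gives the relative of miR-196a encoded in the Hoxa cluster, for comparison of the seed.
miR-196a-5p: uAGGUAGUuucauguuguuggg
miR-196a-2-3p: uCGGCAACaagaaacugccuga
miR-615-5p: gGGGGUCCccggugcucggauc
miR-615-3p: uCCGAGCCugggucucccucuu
miR-196b-5p: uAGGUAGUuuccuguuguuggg

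The other sequences lie on either side of the border of the peaks, and neither contains the border itself. The line for Gm29905, a long non-coding RNA gene, gives 108 bases of its minus strand (GRCm38 chr15:102998118-102998225) that end where the body of Hoxc6 begins. They comprise 58 bases before and 50 after the start of Gm29905, and lie wholly under the last peak of the cluster, which ends 210 bases farther on. The line for Hoxc4 gives the 250 bases before the start that RefSeq's promoter table lists for this gene (GRCm38 chr15:103034145-103034394, plus strand). This start lies inside the outer span of Hoxc4, which includes longer transcript models, and in the peak-free part. Each CG, the dinucleotide whose density defines CpG islands, is in capitals.
Gm29905: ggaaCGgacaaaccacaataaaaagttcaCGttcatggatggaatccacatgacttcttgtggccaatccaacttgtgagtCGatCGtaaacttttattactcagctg
Hoxc4: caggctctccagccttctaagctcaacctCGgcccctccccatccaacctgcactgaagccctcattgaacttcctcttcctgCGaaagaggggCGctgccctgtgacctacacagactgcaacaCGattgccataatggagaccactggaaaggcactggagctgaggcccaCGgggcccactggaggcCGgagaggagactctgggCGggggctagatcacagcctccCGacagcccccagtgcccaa

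**Figure D1:**
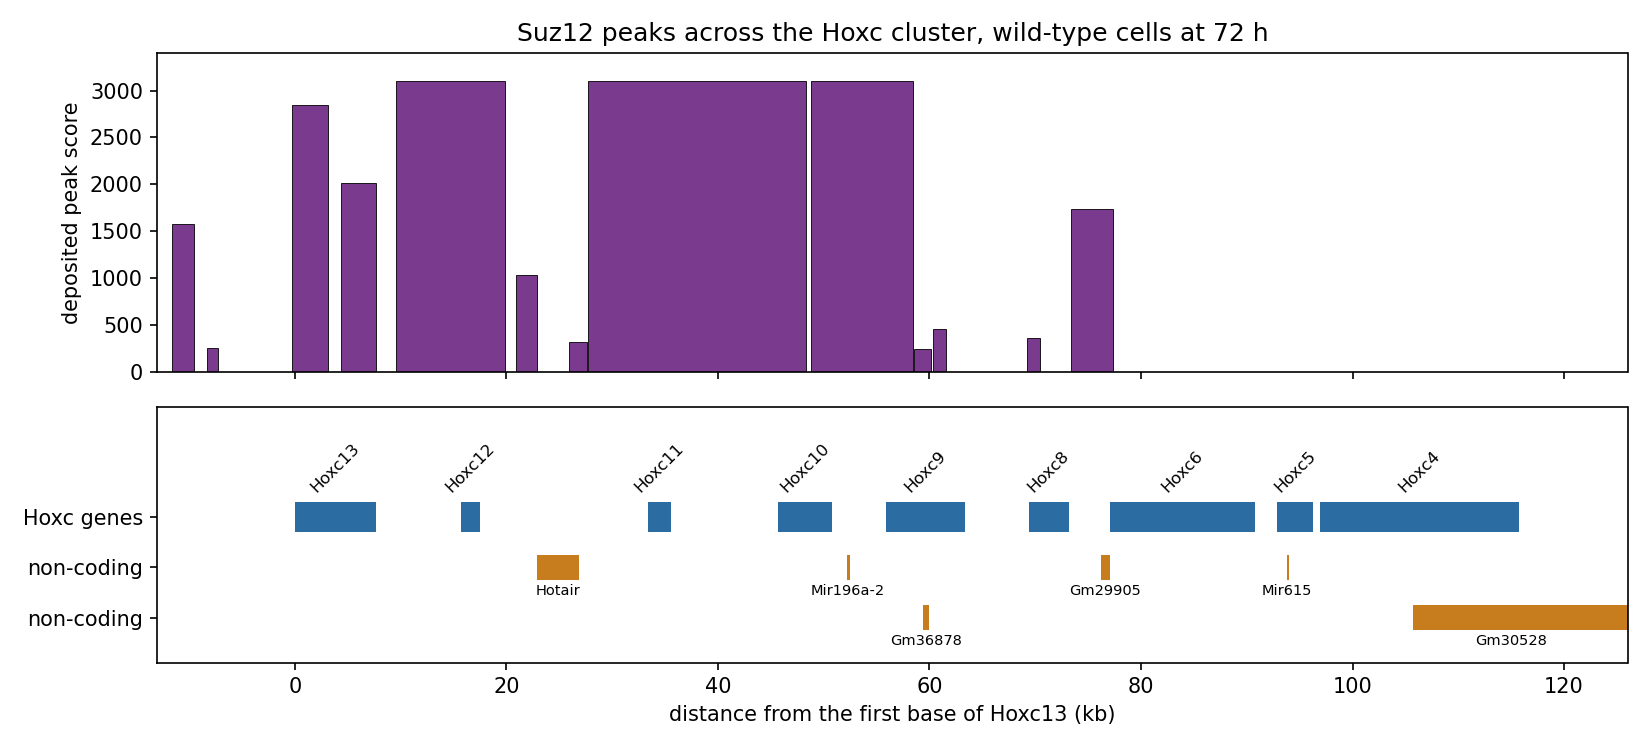
Suz12 peaks of the Hoxc window, drawn to scale along the chromosome with the distance from the first base of Hoxc13 in kb on the horizontal axis. Upper bars span each of the 13 peaks and their height is the deposited score. Lower bars are the 9 Hoxc genes (blue) and the non-coding genes (orange, microRNAs widened to be visible, Gm30528 running past the right edge). The 3 peaks of score 3100 lie between Hoxc13 and a point 2582 bp into Hoxc9, and no peak lies beyond the start of Hoxc6.

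The 13 peaks differed widely in width and in score. The score is the value that the authors' peak caller gave each peak, and by the convention of that caller larger means stronger evidence. Its scale is not stated, and 325 peaks of the list share the value 3100, so peaks at 3100 cannot be ordered. In the Hoxc window, the narrowest peak had 1005 bp, the median one 2139 bp and the widest 20581 bp, where the median of the whole list was 1849 bp. Scores ran from 250.69 to 3100 with a median of 1574, against a median of 572.11 over the list. Of the 13 peaks, 3 (23.1%) were wider than 5 kb, against 223 of 3373 (6.61%) in the list, and the same 3 had the score 3100. In the list, 355 peaks (10.5%) scored 3100 or more, and wide peaks scored high in general (Spearman's rho 0.889 between score and width over the 3373 peaks, which share 1 library). These 3 peaks alone supplied 69.2% of the covered bases of the cluster, while 5 of the 13 scored below the median of the list.

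The widest peak of the whole list ran over 20581 bp (GRCm38 chr15:102948872-102969452). It began between Hotair and Hoxc11, covered all of Hoxc11 and the gap behind it, and ended inside Hoxc10. A peak of 10301 bp (chr15:102930701-102941001) enclosed Hoxc12, and 37 peaks of the list, itself included, were at least as wide. The third, of 9675 bp (chr15:102969939-102979613), joined the end of Hoxc10 to the start of Hoxc9, and 46 peaks were at least as wide. Gene bodies made up little of the first 2, since Hoxc gene bodies held 23.5% of the widest peak and 17.3% of the peak at Hoxc12, against 46.9% of the peak from Hoxc10 to Hoxc9.

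**Figure D2:**
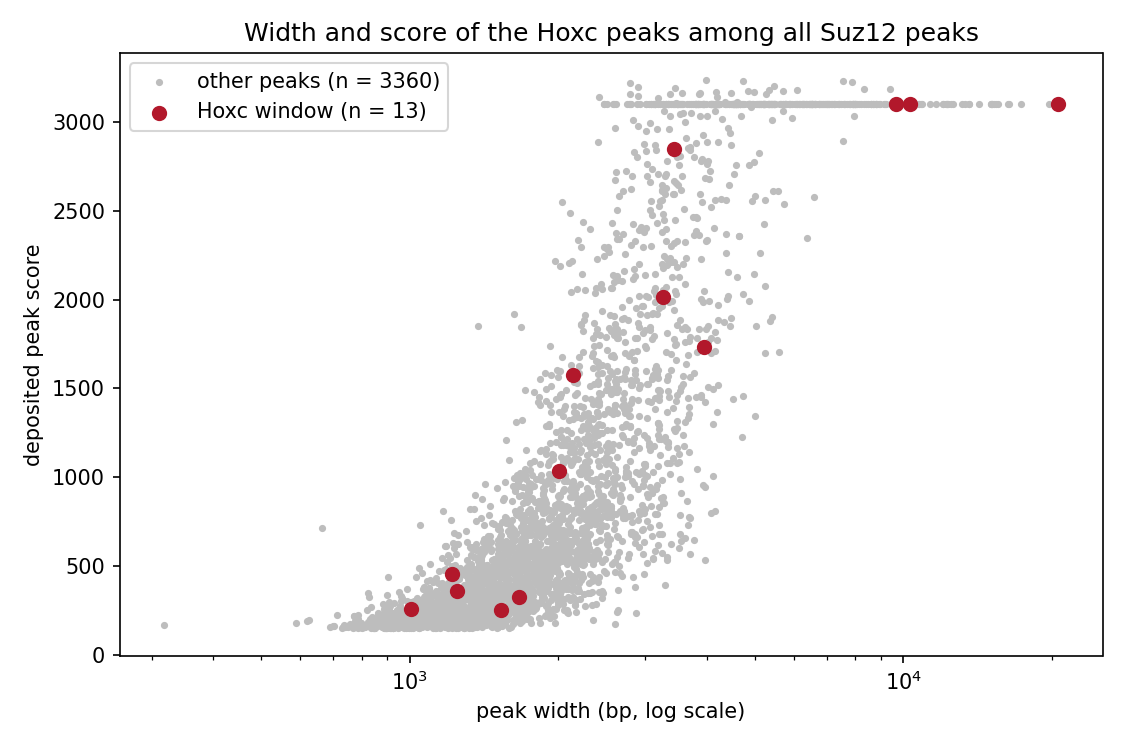
Each point is 1 of the 3373 Suz12 peaks, with its width in bp on a log scale (horizontal) and its deposited score (vertical). The 13 peaks of the Hoxc window are in red and the other 3360 in grey, and the Hoxc peaks spread from 250.69 to the row of points at 3100, where they include the widest peak of all, 20581 bp.

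Counted by gene, 7 of the 9 Hoxc genes had a peak over at least 1 base of the gene body. Over all 21631 protein-coding genes of the RefSeq table the share was 12.3%. At least 50% of the body was covered at 5 of the 9, namely Hoxc13, Hoxc12, Hoxc11, Hoxc10 and Hoxc9, against 1.68% of all protein-coding genes. Neighbouring genes share peaks, 2 peaks each touching 2 Hoxc genes, so the genes are not independent observations.

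Hoxc13, which controls hair and nail genes, had 6424 of 7684 bp covered (83.6%; chr15:102921131-102928814). Its 2 peaks scored 2845 and 2016, the first starting 269 bp before the gene and the second beginning 4379 bp into it. They left 1216 bp free between them and the last 44 bp of the gene uncovered. Hoxc12 (chr15:102936826-102938609) and Hoxc11 (chr15:102954526-102956701), both used at the tail end of the body, were covered over their whole length, 1784 and 2176 bp, each by a single peak of score 3100. Of all protein-coding genes, 0.772% were covered over at least 90% of their length, and Hoxc10 was the only other Hoxc gene among them.

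Hoxc10, a gene of the lumbar region and hindlimb, had 90.5% of 5103 bp covered (chr15:102966796-102971898). Both of its peaks scored 3100 and the single break between them was 486 bp. Hoxc9, which sets the identity of thoracic motor neurons, had 71.9% of 7413 bp covered (chr15:102977032-102984444), but by 3 peaks of unequal score. The 3100 peak covered its first 2582 bp, and peaks of score 250.69 and 456.68 covered 1532 and 1219 bp farther in. The last 1751 bp of Hoxc9 held no peak. When only peaks at or above the median score of the list were kept, the coverage of Hoxc9 was 34.8%, so that the strong part of its coverage lay at its start.

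Hoxc8, a gene of the brachial and thoracic levels, was covered over 28.3% of 3737 bp (chr15:102990539-102994275), all of it at the start, by a peak of 1247 bp and score 361.49. The remaining 2680 bp, 71.7% of the gene, were free. This peak is the only one at Hoxc8 and falls below the median score of the list, without which the gene is at 0%. Hoxc6, which acts at forelimb level, was touched over 210 of 13657 bp (1.54%; chr15:102998226-103011882). Those 210 bp are the edge of a peak of 3947 bp and score 1735 that lies almost wholly before the gene. With peaks shortened by 150 bp at both ends, Hoxc6 stood at 0.439%.

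Hoxc5 (chr15:103014008-103017429) and Hoxc4 (chr15:103018097-103036856), genes of the neck and upper trunk, had no peak. The nearest peak was 15572 bp from Hoxc5 and 19661 bp from Hoxc4, in both cases the peak at the start of Hoxc6. Read depth is unknown, so binding below the authors' threshold could not be detected in this part. By another rule, a peak within 2.5 kb of either end of a gene, neither of them had one, and the count was again 7 of 9, against 11.7% of all protein-coding genes by that rule.

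All 7 Hoxc genes with a peak had one over their first base, and 3 of them, Hoxc12, Hoxc11 and Hoxc10, over their last base as well. Hoxc13, Hoxc9, Hoxc8 and Hoxc6 had none over the last base, with free ends of 44, 1751, 2680 and 13447 bp in that order along the chromosome. The free bases of Hoxc10, and 1216 of those of Hoxc13, lay inside the gene. Over all 9 Hoxc genes, with or without a peak, the counts were thus 7 for the first base and 3 for the last. The reference is 17274 protein-coding genes with a strand in RefSeq's promoter table, also with or without a peak. Of these, 7.18% had a peak over the start and 1.13% over the far end. The shares among only those genes that have a peak were not computed. A best score of 3100 was found over Hoxc12, Hoxc11, Hoxc10 and Hoxc9, and 1.58% of all protein-coding genes had a peak of that score or more.

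**Figure D3:**
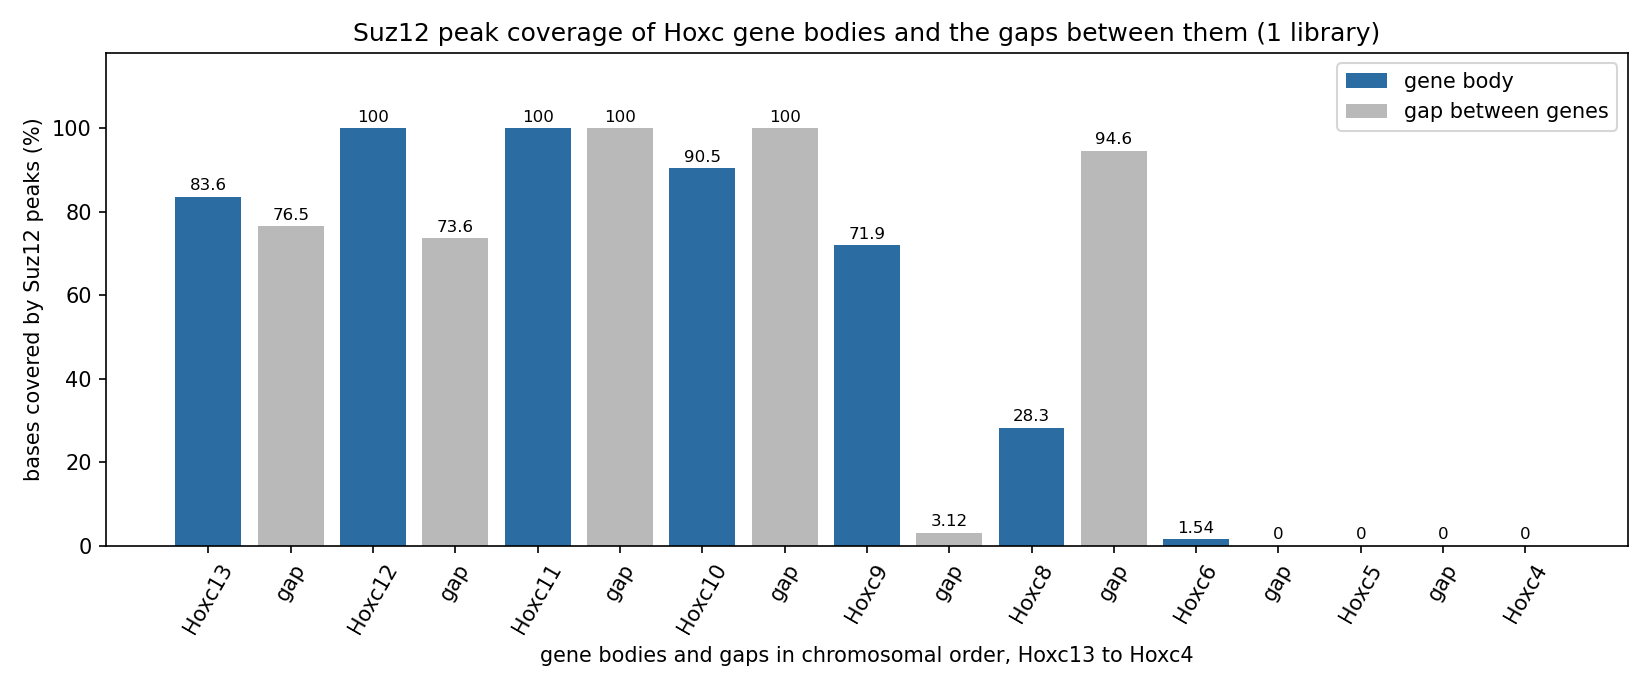
Percent of bases covered by Suz12 peaks (vertical) for each Hoxc gene body (blue) and each gap between neighbours (grey), in chromosomal order from Hoxc13 to Hoxc4. Values stand above the bars. The bars are at 71.9 to 100% from Hoxc13 through Hoxc9, and the gap before Hoxc6, at 94.6%, is high between the low bars of Hoxc8 and Hoxc6.

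The gaps between the genes were covered as fully as the genes on the high-numbered side. From Hoxc13 to Hoxc9, gaps were covered over 84.5% of their length and gene bodies over 84.2%. Over the whole cluster the figures were 71.2% of 51990 bp in gaps and 33.9% of 63736 bp in gene bodies, the long bodies of Hoxc6 and Hoxc4 lying in the peak-free part. Gaps held 63.1% of the covered bases of the cluster. Peaks were present in 6 of the 8 gaps, and no share over other intergenic gaps was computed to set beside this count. The gap between Hoxc9 and Hoxc8 counts through only 190 bp of a peak of score 361.49.

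The 2 gaps from Hoxc11 to Hoxc9 had no free base at all, the 10094 bp between Hoxc11 and Hoxc10 and the 5133 bp between Hoxc10 and Hoxc9. Between Hoxc13 and Hoxc12, 76.5% of 8011 bp was covered, with 1 free stretch of 1886 bp next to Hoxc13. The gap between Hoxc12 and Hoxc11, the longest with 15916 bp, was covered over 73.6% by 4 peaks. Beyond Hoxc9, only the gap between Hoxc8 and Hoxc6 was largely covered. The 6094 bp between Hoxc9 and Hoxc8 were covered over 3.12%, only the 190 bp before the start of Hoxc8, while the 3950 bp between Hoxc8 and Hoxc6 were covered over 94.6%. That 3.12% comes from the low-scoring peak at Hoxc8 and was 0% when peaks below the list's median score were left out and 0.656% with shortened peaks. The gaps between Hoxc6 and Hoxc5 (2125 bp) and between Hoxc5 and Hoxc4 (667 bp) had none.

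The longest free stretch inside the cluster, 38421 bp, ran from 102998436 to the end of Hoxc4 and made up 33.2% of the cluster. The next, 7655 bp, took in the end of Hoxc9 and nearly all of the gap before Hoxc8. The third, 3042 bp (chr15:102944028-102947069), lay between Hoxc12 and Hoxc11 and fell almost wholly within Hotair. A free stretch of nearly the same length, 2893 bp (chr15:102991596-102994488), took in the end of Hoxc8. From the peak just before Hoxc13 to the last peak in Hoxc9, 61832 bp held 9 peaks, covered 86.8% of that length, and had 8 breaks of 87 to 3042 bp, of which 4 were shorter than 500 bp.

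Hotair, a long non-coding RNA known for its reported ties to Polycomb complexes and read against the direction of the Hoxc genes, had 22.6% of its 3885 bp covered (chr15:102944062-102947946). On its Hoxc12 side the nearest peak, of score 1034, ended 34 bp short of it. On its Hoxc11 side a peak of 1663 bp and score 324.04 covered its last 877 bp by coordinate, which is its start given its direction. The 3008 bp between were free. Coverage of Hotair was thus below that of the genes on either side, Hoxc12 and Hoxc11, both at 100%.

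The other non-coding genes of the window were either wholly covered or had no peak. Mir196a-2, whose sequence is given above, sat wholly inside the 3100 peak between Hoxc10 and Hoxc9. Gm36878, inside Hoxc9, was covered over its 587 bp by the peak of score 250.69, and Gm29905, beyond Hoxc8, over its 836 bp by the peak before Hoxc6. Mir615 was 16474 bp from the nearest peak. Gm30528, which overlaps Hoxc4 and runs past it, had no peak over its 33749 bp. The seed of miR-196a-5p is shared with miR-196b-5p alone among the mature mouse microRNAs of the RefSeq table. The 3 genes for these RNAs differed in coverage: Mir196a-2 at Hoxc and Mir196b at Hoxa (chr6:52230129-52230150 for the 5p arm) each lay in a peak of score 3100, and the 5p arm of Mir196a-1 at Hoxb lay 4278 bp from the nearest peak.

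The CpG content of promoters could be described for few of these genes. RefSeq's promoter table (300 bp, from 250 before to 50 after the start) holds 1 of the 9 Hoxc genes, Hoxc4, and 22 of all 39 Hox genes. The Hoxc4 window, printed above without its last 50 bases, held 9 CG and had an observed over expected CG ratio of 0.333. The Gm29905 window, under the last peak, held 12 and had a ratio of 0.735, and that of Gm36878, 73% covered, held 13 with a ratio of 0.677. Over 32619 windows the median was 7 CG, with 21 in the 2219 windows that touched a peak and 6 in the 30400 that did not. Among Hox windows the medians were 20 in 16 with a peak and 11.5 in 8 without, and individual windows overlapped widely, from 4 CG at Hoxa9 with a peak to 29 at Hoxa5 without one. These are counts of letters in a fixed window and say nothing about CpG islands elsewhere in the genes.

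Outside the genes, 2 peaks lay in the flank beyond Hoxc13 and none in the flank beyond Hoxc4. The peak nearer to Hoxc13 was 1005 bp wide with score 259.47 and ended 7277 bp before the gene. The farther one was 2139 bp wide with score 1574, ended 9508 bp before it, and had 492 bp inside the window. The nearer peak overlapped no annotated gene. The farther peak overlapped none inside the window, and its part outside was not checked against non-coding genes. Beyond these 2 peaks, the next one on the Hoxc13 side was 161411 bp away. On the other side, the next peak was 87222 bp beyond the peak at Hoxc6. The usual spacing of peaks in the list was not computed, so these distances cannot be called long or short. The nearest protein-coding genes, Calcoco1 at 198952 bp and Smug1, a DNA repair enzyme gene, at 116433 bp, had no peak. Joined across distances of up to 3 kb, the 13 peaks formed 4 domains of 4370, 23166, 35624 and 8087 bp, in order from the flank to Hoxc6. Their borders depend on this limit. The break of 3042 bp between Hoxc12 and Hoxc11 is just over it, and that of 2893 bp at Hoxc8 just under it. With the limit of 3 kb, the domain over Hoxc11, Hoxc10 and Hoxc9 was the most filled of the 4, with 97.3% of its length under peaks. The others were at 82% over Hoxc13 and Hoxc12, 71.9% in the flank, and 64.2% over Hoxc8 and the start of Hoxc6. These shares also depend on which breaks the limit takes in.

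The other 30 Hox genes, in the Hoxa, Hoxb and Hoxd clusters, serve as the reference for position. In paralogue groups 9 to 13, all 5 Hoxc genes had a peak with a median coverage of 90.5% (71.9 to 100%), and all 11 others did with a median of 100% (32.4 to 100%). In groups 6 to 8, both Hoxc genes and 3 of 6 others had a peak, with at most 28.3% covered in Hoxc and up to 100% among the others, reached by Hoxa7. In groups 4 and 5, neither Hoxc gene and 1 of 5 others had a peak. Hoxc has no members of groups 1 to 3.

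Group by group, the place of Hoxc among the clusters varied. Hoxc13 (83.6%) was the only gene of group 13 below 100%, but these are shares of gene spans of unlike length. Hoxc13 spans 7684 bp, of which 6424 bp were covered. Hoxa13, Hoxb13 and Hoxd13 span 2028, 2295 and 3379 bp. Hoxc12 and Hoxd12 were both at 100%, and Hoxc11 was at 100% with Hoxa11, above Hoxd11 (91.3%). In group 10, Hoxc10 (90.5%) stood near Hoxd10 (94%) and Hoxa10 (98.5%). In group 9, Hoxc9 (71.9%) lay above Hoxb9 (32.4%) and below Hoxa9 (92.9%) and Hoxd9 (100%). In group 8, Hoxc8 had the highest coverage (28.3%, score 361.49), followed by Hoxd8 (20.6%, score 401.23), and Hoxb8 had no peak. In group 6, Hoxc6 (1.54% of 13657 bp) lay between Hoxa6 (0% of 3815 bp) and Hoxb6 (14.6% of 8756 bp). Hoxc5 shared 0% with Hoxa5 and Hoxb5, and Hoxc4 with Hoxa4 and Hoxb4, while Hoxd4 had 10.9% (score 184.34). Without replicates, none of these differences has an error to be held against.

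**Figure D4:**
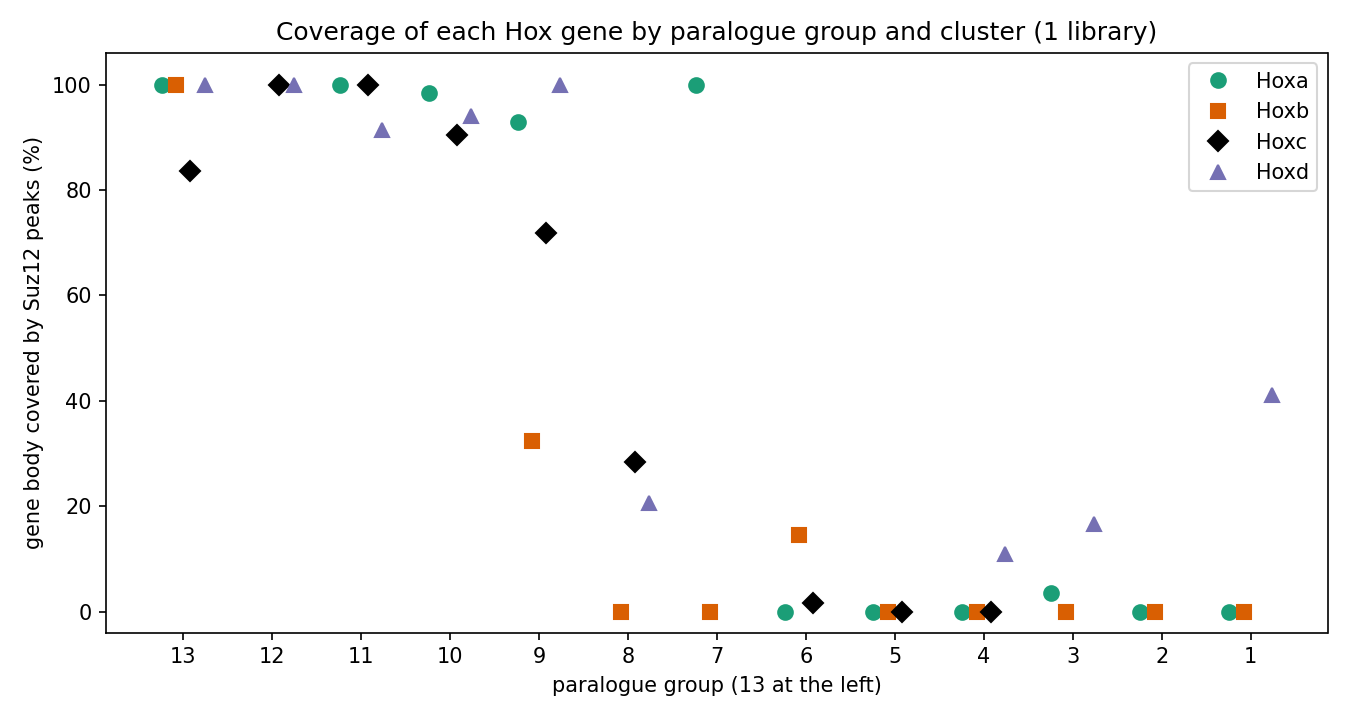
Percent of each gene body covered by Suz12 peaks (vertical) for the 39 Hox genes by paralogue group (horizontal, 13 at the left), with 1 symbol per cluster. The Hoxc genes (black) are at 71.9 to 100% in groups 9 to 13, at 28.3% in group 8, and at 0 to 1.54% in groups 4 to 6.

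As whole clusters, Hoxc had the most bases under peaks, 58599, against 42253 at Hoxd, 42224 at Hoxa and 13980 at Hoxb. The clusters differ in length, with 115726 bp at Hoxc, 96918 bp at Hoxd, 105514 bp at Hoxa and 173939 bp at Hoxb. As shares of these lengths, coverage was 50.6% at Hoxc, 43.6% at Hoxd, 40% at Hoxa and 8.04% at Hoxb. From group 13 to the far end of the group 9 gene, coverage was 84.3% at Hoxc, 90.3% at Hoxa, 97.5% at Hoxd and 15.4% at Hoxb. These stretches are unlike, since Hoxb has no genes of groups 10 to 12. Its stretch is mostly the gap between Hoxb13, which ends at chr11:96196610, and Hoxb9, which starts at chr11:96271330. In the remainder it was 9.91% at Hoxc, 12% at Hoxa, 17% at Hoxd and 1.4% at Hoxb. The longest stretch without a peak was 38421 bp at Hoxc, 56181 bp at Hoxa, 68255 bp at Hoxb and 15037 bp at Hoxd. At Hoxd, unlike Hoxc, peaks were found in all 9 genes, including the one of group 4. The only peak at Hoxd4 scored 184.34, below double the lowest score of the list (300.6), so that filter would leave Hoxd4 without a peak.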

How the data were processed

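One Suz12 library was used, wild-type cells at 72 h. Bowtie, MACS and the mouse assembly GRCm38 (mm10) are named in the submitters' processing notes. Their versions and parameters, the control, any pooling and the read depth are not given in the labels used here. For each peak the deposited list holds a start, an end and a score that the authors' caller assigned, and 30 peaks score above the repeated value 3100. The score was used only to describe and filter peaks. Starts were raised by 1 to give 1-based coordinates. Peaks were intersected with the outer gene ends of a RefSeq table of GRCm38.p6 in Python 3.11.15, with overlap code tested on simulated data. Outer ends span all transcript models, predicted ones included, so exons and introns were not separated. Strand came from RefSeq's promoter and microRNA tables, and for Hoxc genes other than Hoxc4 from their known shared direction. Named genes were the 9 Hoxc genes, every annotated gene within 10 kb of the cluster, the nearest coding gene on each side, and the other Hox genes as a reference. The members and lists were chosen with earlier results of these data known. Alternatives changed the score filter, peak extent, overlap rule, flank and joining distance.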

Additional observations from a re-analysis of the deposited data

How the results depend on the processing

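Coverage of the Hoxc cluster was 50.6% with all peaks, 49.3% keeping scores no lower than double the list's minimum, 45.7% with scores at or above the median, and 47.9% with each peak shortened by 150 bp at both ends. The window held 13 peaks, and 8 at or above the median score. Its 4 domains became 9 when peaks were joined within 1 kb and 1, of 88952 bp, within 10 kb. The number of Hoxc genes with a peak ran from 5 (at least 50% of the gene covered) to 7, and the longest free stretch was 38421 bp with all peaks and with those at or above the median. Coverage has no sign, so the 51 alternative values for single genes and gaps could not reverse. With scores at or above the median, Hoxc8 fell from 28.3% to 0% and Hoxc9 from 71.9% to 34.8%. The 3 settings were for score (double the lowest, median) and peak extent. Under them 1, 4 and 9 of 17 values each left the 95% binomial interval of the main value. That interval treats bases as independent and is narrow. Apart from those named beside the results, the limits are 1 library, an unstated score scale and unknown depth. No paired analysis was possible because only 1 of the libraries was analysed and no test was run.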
